A study of Mus musculus with 4 samples.

Results

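The 8 genes Tcp1, Cct2, Cct3, Cct4, Cct5, Cct6a, Cct7 and Cct8 encode the subunits of the cytosolic chaperonin TRiC, and they were taken by name from the RefSeq annotation of mm10, which holds 21896 protein-coding genes. A peak was counted for a gene when its summit lay inside the gene or within 1 kb of either end. By this rule 3 of the 8 genes, Cct2, Cct4 and Cct7, had a peak of HA-tagged human WDR5 (HA-hWDR5) after rescue at T12h, and Cct4 and Cct7 had one after rescue at T48h. Among all protein-coding genes 4.25% had a peak at T12h, 1.69% at T48h and 1.08% at both times.

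Both peak lists came from chromatin immunoprecipitation with an anti-HA antibody and sequencing (ChIP-seq) in mouse embryoid bodies at day 6, with 1 ChIP library per rescue time and therefore no replicates. The genotype of both is given as Wdr5 KO, and the rescue was HA-hWDR5 induced with doxycycline at T12h or at T48h. The event that starts this clock is not given in the sources used here. Embryoid bodies were grown from the stem cell line Rx:GFP KI, which reports on a gene of the early eye field, by SFEBq culture (5% KSR, then 2% Matrigel added at day 1). After duplicate removal the ChIP libraries held 55539917 tags at T12h and 67116740 at T48h, and the lists hold 1197 and 660 peaks.

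TRiC is a pair of stacked rings, each built from 1 copy of every subunit, which encloses newly made proteins and folds them with energy from ATP. Actin and tubulin are its best-known clients, and prefoldin hands them over. Since the complex needs all subunits in equal number, their genes are usually transcribed together at high levels in growing cells. WDR5 is the scaffold of the MLL and SET1 complexes, which methylate lysine 4 of histone H3 at promoters, and it also binds MYC.

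To place the peaks against the starts of transcription, the 300 bases around the annotated starts of Cct2 and Cct7 are shown, as RefSeq gives them for GRCm38.p6, the build mm10. Each runs from 250 bases before the start to 50 after it. That of Pradc1 is shown because Pradc1 starts inside the Cct7 peaks and runs the other way. That of Cct6a is shown for contrast: it holds the same letters CCAAT and GGGCGG as Cct7, and Cct6a had no peak (it was chosen after the values were seen). Capitals mark the letters searched on both strands, which are listed after the sequences.
Cct7 (chr6:85451255-85451554, plus strand): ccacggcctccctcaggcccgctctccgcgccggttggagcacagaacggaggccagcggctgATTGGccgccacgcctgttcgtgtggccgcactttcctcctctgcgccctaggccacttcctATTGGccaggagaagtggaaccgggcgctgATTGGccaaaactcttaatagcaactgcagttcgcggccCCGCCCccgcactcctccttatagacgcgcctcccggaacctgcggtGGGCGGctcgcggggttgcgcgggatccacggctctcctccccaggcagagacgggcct
Pradc1 (chr6:85451921-85452220, minus strand): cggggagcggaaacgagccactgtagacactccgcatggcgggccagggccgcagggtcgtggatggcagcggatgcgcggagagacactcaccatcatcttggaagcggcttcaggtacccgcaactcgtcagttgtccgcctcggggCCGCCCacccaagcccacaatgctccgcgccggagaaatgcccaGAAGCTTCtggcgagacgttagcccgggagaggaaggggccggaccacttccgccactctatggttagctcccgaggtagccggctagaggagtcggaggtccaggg
Cct2, first start (chr10:117063803-117064102, minus strand): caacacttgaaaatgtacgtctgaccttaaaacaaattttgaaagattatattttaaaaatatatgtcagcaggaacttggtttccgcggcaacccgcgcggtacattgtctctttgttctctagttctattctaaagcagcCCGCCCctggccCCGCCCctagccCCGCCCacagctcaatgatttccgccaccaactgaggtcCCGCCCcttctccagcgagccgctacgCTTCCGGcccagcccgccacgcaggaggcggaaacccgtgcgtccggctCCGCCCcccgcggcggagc
Cct2, second start (chr10:117063326-117063625, minus strand): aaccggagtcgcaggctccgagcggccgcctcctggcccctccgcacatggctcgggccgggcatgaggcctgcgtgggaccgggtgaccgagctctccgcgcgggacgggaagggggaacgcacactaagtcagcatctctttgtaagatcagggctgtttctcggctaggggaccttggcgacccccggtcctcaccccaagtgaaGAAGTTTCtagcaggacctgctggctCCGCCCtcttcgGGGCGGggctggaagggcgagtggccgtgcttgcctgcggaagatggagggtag
Cct6a (chr5:129787106-129787405, plus strand): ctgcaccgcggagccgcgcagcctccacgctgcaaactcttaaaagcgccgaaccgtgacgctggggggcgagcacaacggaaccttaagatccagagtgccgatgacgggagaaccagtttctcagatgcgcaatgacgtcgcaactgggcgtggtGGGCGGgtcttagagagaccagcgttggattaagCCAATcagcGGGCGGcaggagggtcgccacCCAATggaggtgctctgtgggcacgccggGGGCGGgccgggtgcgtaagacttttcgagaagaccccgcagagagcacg

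Neither the Cct7 window nor the first Cct2 window shared a base with a peak. The contrast of the Cct7 window with that of Cct6a therefore does not bear on the sequence under the Cct7 peaks. The Pradc1 window lay whole inside the Cct7 peaks of both times, with the T12h summit at its base 38, and 281 bases of the second Cct2 window lay inside the Cct2 peak. The summits at Cct2 and Cct7 thus lay inside the genes, downstream of the first annotated start. They lay upstream of the second Cct2 start and of the Pradc1 starts. Of all summits within 1 kb of a protein-coding start, 62.2% at T12h and 67.9% at T48h lay downstream of the nearest one.

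Cct4 encodes the delta subunit and had the strongest peak of the family at T12h. That peak spanned 973 bp (chr11:22990307-22991279) and held 368 tags, with a deposited fold of 42.67 over the local background. The score, which is the negative log10 of the peak caller's p-value times 10, was 2894.96, the 5th highest of 1197. At T48h the peak at the same place spanned 862 bp (chr11:22990319-22991180), held 238 tags and had a fold of 10.92 and a score of 745.83, rank 70 of 660. The Cct4 summits of both times lay 8 bp apart, inside the gene and 116 bp (T12h) and 108 bp (T48h) from its lower-coordinate end, and no other gene was within reach of them. The whole T48h peak lay inside the T12h peak.

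Cct7 encodes the eta subunit, and its peak was strong at both times. At T12h it spanned 1035 bp (chr6:85451650-85452684) and held 349 tags, with a fold of 27.31 and a score of 2041.61, rank 55. At T48h it spanned 1006 bp (chr6:85451756-85452761) and held 284 tags, with a fold of 23.52 and a score of 1532.81, rank 10. The Cct7 peak thus ranked below that of Cct4 at T12h and above it at T48h. The Cct7 summits, 68 bp apart, lay 678 bp (T12h) and 746 bp (T48h) after the annotated start of Cct7. The start of another gene, Pradc1, lay nearer to both.

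The Cct7 peak was shared with Pradc1, which encodes a protein with a protease-associated domain. Pradc1 and Cct7 overlap by 483 bp at their starts, on opposite strands. The T12h summit lay 213 bp and the T48h summit 281 bp before the annotated Pradc1 start that lies inside the peaks, closer than to the start of Cct7. A second annotated Pradc1 start lay 881 bp and 949 bp from these summits. When each peak was counted only for the gene with the nearest end, a choice made after the data were seen, Pradc1 took both peaks, and Cct2 and Cct4 at T12h and Cct4 at T48h were the members left.

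Cct2 encodes the beta subunit and had a peak in the T12h list and none in the T48h list. It spanned 441 bp (chr10:117063345-117063785), held 45 tags and had a fold of 7.88 and a score of 109.1, rank 408 of 1197. Its fold was close to the median of all T12h peaks, 7.31. The summit lay 172 bp after the first annotated Cct2 start and 305 bp before the second, and no other gene was in reach. At T48h the nearest summit lay 1735.1 kb away. Of the 100 T12h peaks next to it in score (96.14 to 122.31), 6 overlapped a T48h peak. Among all 1197 T12h peaks 225 (18.8%) did. Most T12h peaks thus had no T48h counterpart in these lists, those of its strength among them. Whether Cct2 differed between the times was not tested, and tags at Cct2 in the T48h library were not analysed here.

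**Figure D1:**
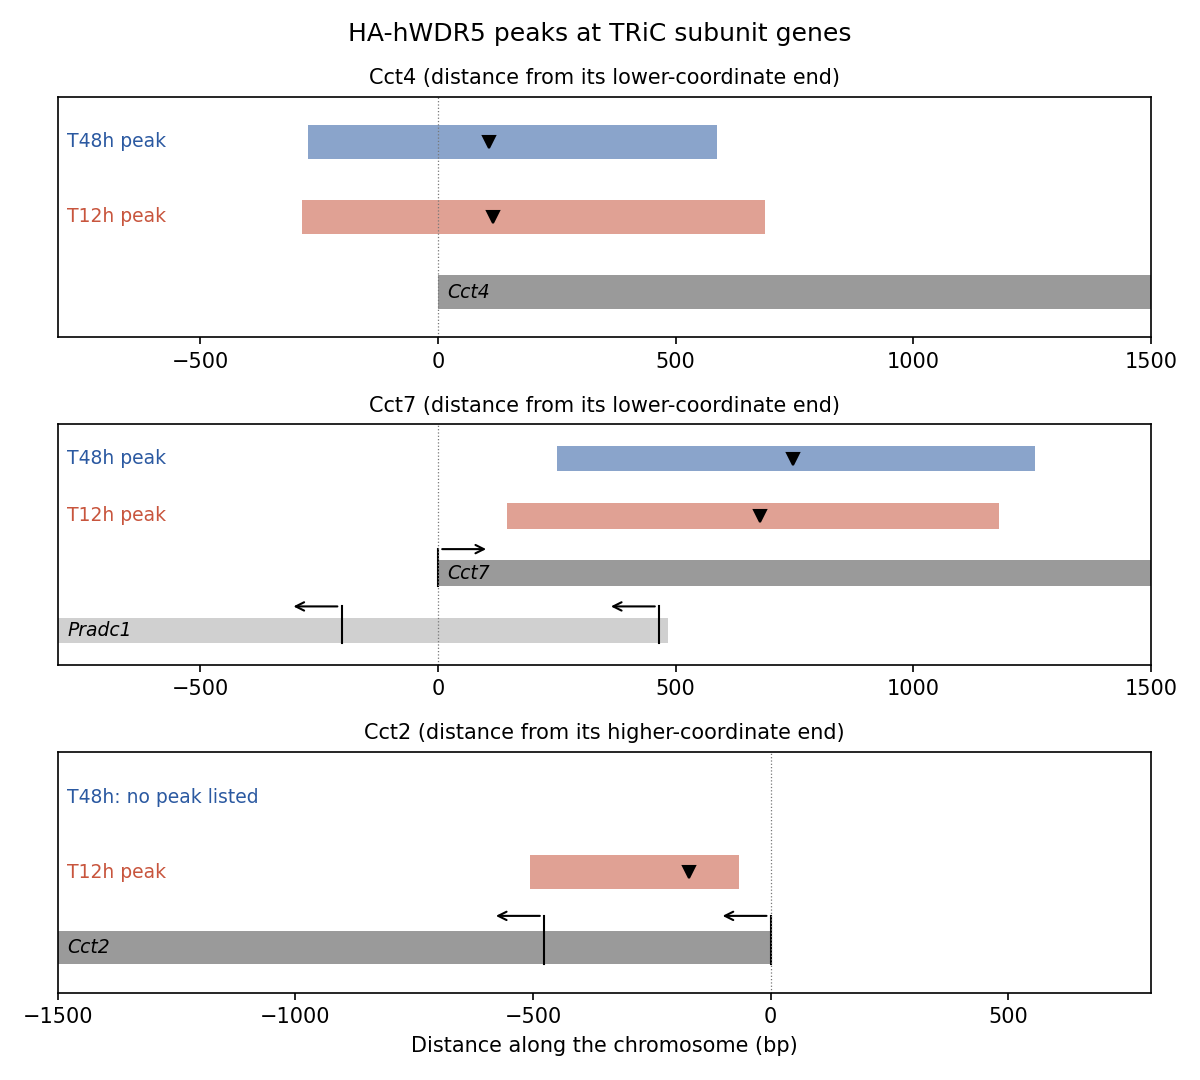
Peaks of HA-hWDR5 at Cct4, Cct7 and Cct2. The horizontal axis is the distance in bp along the chromosome from the gene end named above each panel, coloured bars are peaks (T12h red, T48h blue), triangles their summits, grey bars genes, and bent arrows annotated starts with their direction (no start is drawn for Cct4). The Cct4 peaks cover the gene end, the Cct7 peaks begin 145 bp (T12h) and 251 bp (T48h) inside Cct7 and cover a Pradc1 start, and the T12h peak of Cct2 covers its second start, with the summit between the 2 starts.

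To set the times side by side, tags were scaled to 1000000 filtered tags of the library, called the normalised tag count here. Cct4 had a normalised tag count of 6.63 at T12h (95% Poisson interval 5.97 to 7.34) and 3.55 at T48h (3.11 to 4.03). Cct7 had 6.28 (5.64 to 6.98) and 4.23 (3.75 to 4.75), and Cct2 had 0.810 at T12h (0.591 to 1.08). The T12h intervals of Cct4 and Cct7 lay above their T48h intervals, but these cover counting error only and compare 2 libraries, not the conditions. At T12h the intervals of Cct4 and Cct7 overlapped each other, and at T48h they did as well. The normalised tag count at T48h was 0.535 times that at T12h for Cct4 (95% interval 0.453 to 0.632) and 0.673 times for Cct7 (0.574 to 0.790).

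**Figure D2:**
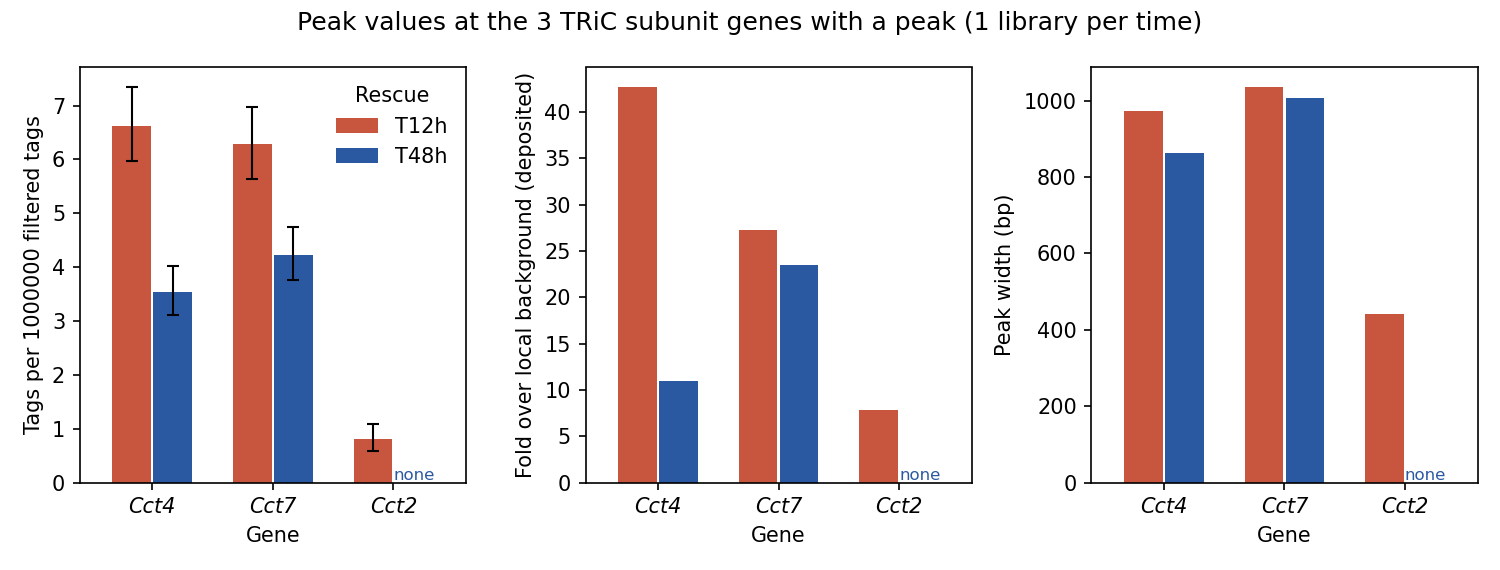
Tags per 1000000 filtered tags, deposited fold and peak width in bp at Cct4, Cct7 and Cct2. Bars are single libraries (T12h red, T48h blue), error bars are 95% Poisson intervals of the tag count, and "none" marks that no peak is listed. The fold of Cct4 went from 42.67 to 10.92 while its normalised tag count went from 6.63 to 3.55.

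Lower values at T48h were common to the sites found at both times. Pairing each peak with the single peak it overlapped at the other time, by 1 bp or more, gave 221 pairs. Of these, 199 had a lower normalised tag count at T48h, with a median ratio of 0.621 (quartiles 0.507 and 0.769). The ratio at Cct4 was lower than this median and that at Cct7 higher, and both lay between the quartiles. Relative to the median of the shared peaks, Cct4 stood at 0.862 and Cct7 at 1.09, so the direction at Cct7 turned. Per kb of peak, the normalised tag count at T48h was 0.604 times that at T12h at Cct4 and 0.693 times at Cct7, against a median of 0.676.

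The deposited fold set Cct4 apart. Its T48h fold was 0.256 times its T12h fold, the lowest ratio of the 221 pairs, whose median was 0.681. At Cct7 the ratio was 0.861, and 177 of the pairs had a lower one. Of the 44 pairs with a T12h fold of at least 30, the T48h folds ran from 10.92, at Cct4, to 30.15, with a median of 20.03. In the normalised tag count 68 of the 221 pairs had a lower ratio than Cct4, so the position of Cct4 at the end of the range was seen in the fold and not in the tags. Each fold also depends on the control library of its call, and whether that control was the input of the same time is not given in the sources used here. The part of the control libraries in the Cct4 fold was not tested.

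**Figure D3:**
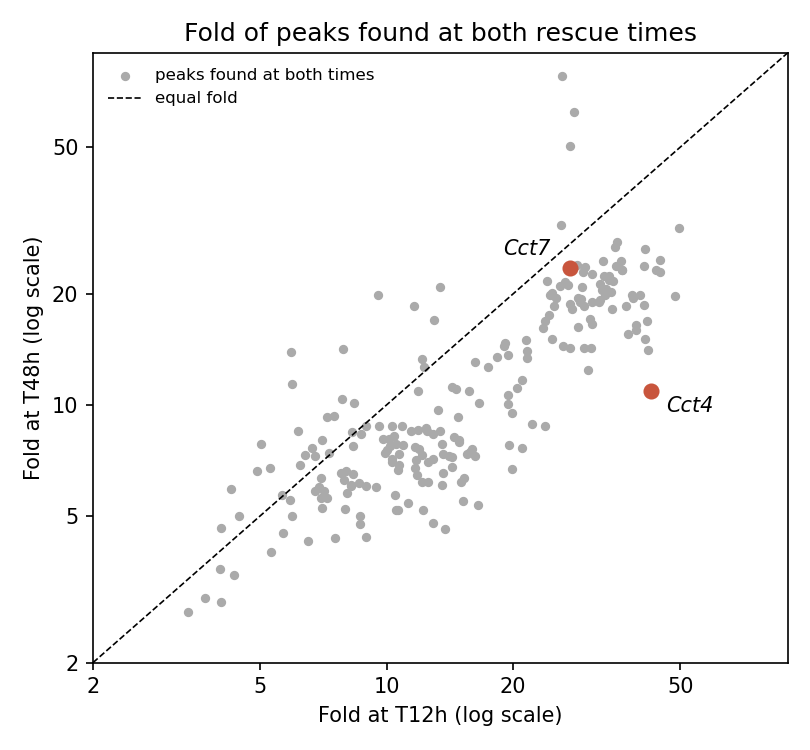
Deposited fold at T12h (horizontal, log scale) and T48h (vertical, log scale) for the 221 peaks found at both times, with equal fold as a dashed line. Cct4 (42.67 and 10.92) lies below all other peaks of like T12h fold, and Cct7 (27.31 and 23.52) lies close to the dashed line.

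In the score, Cct4 stood less far from the other pairs. Its score at T48h was 0.258 times that at T12h, and 34 of the 221 pairs had a lower ratio. For Cct7 the ratio was 0.751, and 181 pairs had a lower one. By tags alone Cct4 ranked 51 at T12h and 65 at T48h, and Cct7 58 and 35. The false discovery rate that the authors deposited, from calls with ChIP and control exchanged, was 20% at T12h and 2.86% at T48h for Cct4. It was 1.82% and 10.0% for Cct7 and 2.45% for the T12h peak of Cct2, with list medians of 3.0% and 9.63%. Each rate is relative to the number of peaks scoring at least as high, so near the top of a list a single exchanged call weighs heavily. By score, Cct4 ranked 5 at T12h and 70 at T48h, Cct7 55 and 10, and Cct2 408 at T12h. The rates therefore do not order these peaks by reliability.

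**Figure D4:**
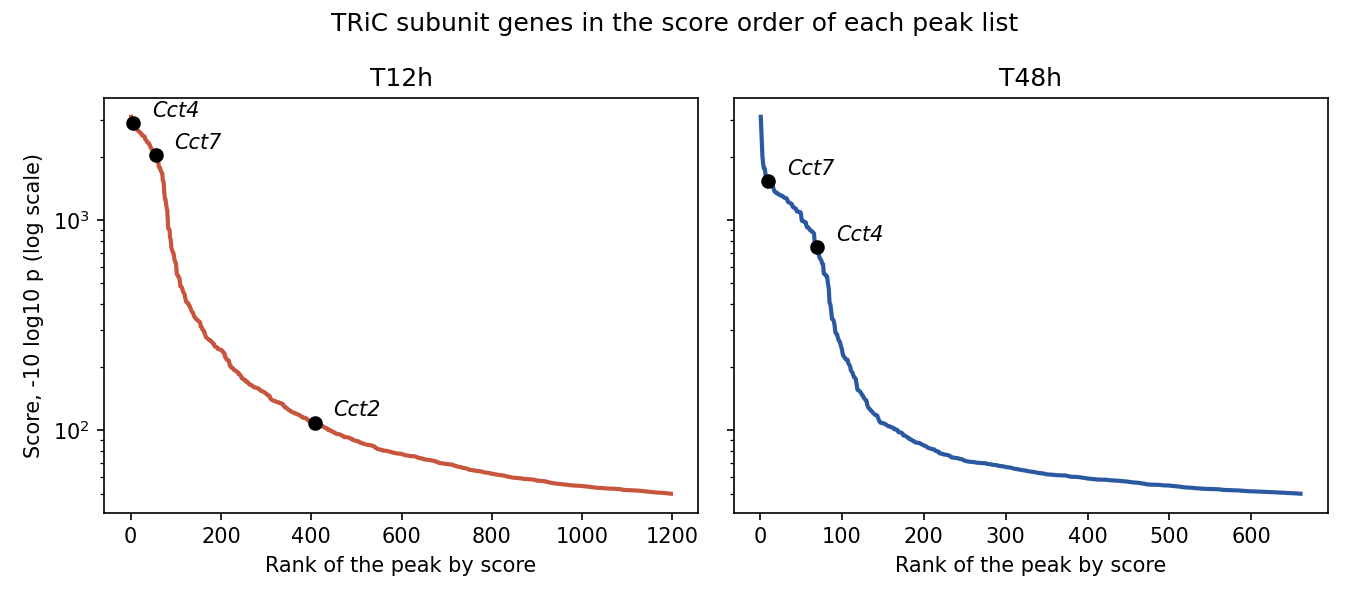
Score (log scale) of every peak against its rank, for T12h (left) and T48h (right), with black points at the members. Cct4 and Cct7 lie in the steep upper part at both times (ranks 5 and 55 at T12h, 70 and 10 at T48h), and Cct2 lies in the flat part at rank 408.

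Tcp1, Cct3, Cct5, Cct6a and Cct8, which encode the alpha, gamma, epsilon, zeta and theta subunits, had no peak in reach at either time. The peak nearest to any of them was at T48h, 11030 bp from Cct5 and inside Cmbl, with 22 tags over 219 bp, a score of 68.58 and a fold of 6.69. For Cct3 the nearest summits lay 119.3 kb away at both times, and for Cct8 129.3 kb away at T48h. For Tcp1 the nearest summit lay 146.5 kb away at T12h, and for Cct6a 719.4 kb away at T48h. A reach of 5 kb therefore added no member. The lists hold only peaks past the p cutoff of 1e-05, the smallest with 12 tags at T12h and 13 at T48h, so weaker binding at these 5 genes was not detectable here.

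The genes without a peak stand close to other genes, as Cct7 does to Pradc1, and some carry small nucleolar RNAs. Tcp1 overlaps Mrpl18, a mitochondrial ribosomal protein gene, by 1459 bp and Acat3 by 1238 bp. It holds 2 snoRNA genes, Snora20 among them. Cct6a overlaps Psph, a gene of serine synthesis, by 88 bp and also holds 2 snoRNA genes, Snora15 among them. Cct8 overlaps Usp16, a deubiquitinase gene, by 191 bp, and Cct3 begins 135 bp from Tsacc. Sumf2 lies 546 bp from Cct6a, and the long non-coding RNA gene B130034C11Rik lies 203 bp from Cct8. None of Mrpl18, Acat3, Psph, Sumf2, Usp16, B130034C11Rik, Tsacc and these snoRNA genes had a peak at either time. Cct5 lies 680 bp from Cmbl, which held the T48h peak given above, and 269 bp from Atpsckmt, which had none. In yeast, the subunits named after Tcp1, Cct2, Cct4 and Cct5 bind ATP more tightly than the other 4. A peak was found at 2 of those 4 genes and at 1 of the others at T12h, and at 1 of each 4 at T48h. Among all protein-coding genes the shares were 4.25% and 1.69%. The gene with a peak among the others was Cct7, whose peaks were shared with Pradc1. Groups of 4 genes are too small to be set against each other.

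The promoter windows were searched for 9 short motifs on both strands, with 7 of the 8 members matched in the RefSeq table (Cct4 was not), in 9 windows. The letters GGGCGG, a GC box of the Sp1 kind, were in the windows of Cct7, Tcp1, Cct3, Cct6a, Cct8, in both of Cct2 and in the first of Cct5, against 46.2% of the 21262 windows of protein-coding genes. CCAAT was found 3 times in Cct7, 2 times each in Cct3 and Cct6a and 1 time in Tcp1 (38.2% of all windows hold it). The letters CCGGAAG, of the ETS kind, were in Tcp1, Cct8 and the first Cct2 window (11.6%). The E-box CACGTG, which MYC binds, was in no member window (7.84%), nor were TATAAA (12.6%) and the YY1-type AANATGGC (6.37%). GAANNTTC, of the heat shock element kind, was in the second Cct2 window and in no other member window (7.21%). The window shown of Pradc1, which is not a member, held it too, and also held GGGCGG. TCTCGCGA was in Cct8 and the second Cct5 window (1.41%). GCGCATGCG, of the NRF1 kind, was in the first Cct5 window as an overlapping match on both strands (2.35%). No searched motif was in all Cct2 and Cct7 windows and absent from the members without a peak. This comparison cannot tell which letters lie under the peaks. The Cct7 window and the first Cct2 window lay outside the peaks, and Cct4 had no window. A match is a description of letters, not a site.

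Base composition varied among the members, and the ranges of those with and without a peak overlapped. The Cct7 window and the first Cct2 window shared no base with a peak, and Cct4 had no window. The motifs and base composition of member windows thus do not describe the sequence under the Cct4 and Cct7 peaks. The Cct7 window had 67.7% G and C with 29 CpG, and the Cct2 windows had 57.3% and 67.0% with 25 CpG each. Among members without a peak, the windows ran from 47.3% with 19 CpG (Cct5, first start) to 63.7% with 29 CpG (Cct5, second start), and Cct6a had 63.3% with 30 CpG. All windows of protein-coding genes had a median of 56.3% and 13 CpG.

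Lists of TRiC partners and clients, and of other chaperonins, held few peaks. Of 6 prefoldin genes, Pfdn4 had a peak at T12h, which spanned 369 bp (chr2:170504420-170504788), held 36 tags and had a fold of 6.14 and a score of 79.36. It lay inside the gene, 8043 bp from its nearest end, where the lncRNA gene Gm16796 also lies. None of 5 cofactor genes (the phosducin-like genes Pdcl, Pdcl2 and Pdcl3, Txndc9, and Cct6b, a relative of Cct6a) had a peak at either time. None of 5 other chaperonin genes had one, among them Hspd1 and Hspe1 of the mitochondrial chaperonin. None of 14 genes of actins, tubulins and tubulin cofactors had one, Actb and Tubb5 among them. Over these 30 genes, 1 had a peak at T12h and 0 at T48h, against 4.25% and 1.69% of all protein-coding genes, which is near the background for lists of this size.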

How the data were processed

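Peaks were called by the authors with MACS 1.4.2, separately for each ChIP library and against a different control library at each time, per the file headers, which do not say whether that control was the input of the same time. Those headers give a cutoff of 1e-05 on p, a band width of 300 bp, a single tag per position, and down-scaling of the larger of ChIP and control. The controls held 54011542 filtered tags (T12h) and 61209779 (T48h), and the estimated fragment lengths of 56 and 57 bp were close to the tag sizes of 50 and 49 bp. The submitters' processing notes also name the build mm10, deepTools, HOMER 4.9.1, SAMtools 1.5 and Bowtie2. Tags are deposited as whole counts per peak. The score as deposited is 10 times the negative log10 of the p-value, the deposited fold is a ratio to the local background, and false discovery rates are deposited in percent.

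Peaks and genes were joined with Python 3.11.15, numpy 2.4.6, pandas 2.3.3 and scipy 1.17.1, and drawn with matplotlib 3.10.9. Gene positions, promoter windows and strands came from RefSeq GRCm38.p6. The summit was the peak start plus the deposited summit minus 1. Joins were tested on simulated data. The members, the lists and the motifs were chosen with earlier results of these data known. All 8 members were named, with every gene in reach of their peaks and any list gene with a peak. Intervals are exact 95% Poisson intervals, or the matching binomial intervals of a ratio, and cover counting error only. No test between the times was made, since each had 1 library. Alternatives changed the reach, the part of the peak used, the score limit, how many peaks were taken, which gene a peak counted for, and the scaling.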

Additional observations from a re-analysis of the deposited data

How the results depend on the processing

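The counts of 3 members at T12h, 2 at T48h and 2 at both times were the same at a reach of 500 bp or 5 kb, at gene ends alone, with any overlap of the whole peak, in the upper 50% of each list, at a score of at least 100, at equal list lengths and with the nearest gene alone. Counting only the gene with the nearest end, chosen after the data were seen, gave 2 members at T12h, 1 at T48h and 1 at both times. The Cct7 peaks then counted for Pradc1. The share of all protein-coding genes (4.25%, 1.69% and 1.08%) was taken for the reported rule alone. The counts under the other rules therefore have no background beside them. The ratio of normalised tag counts, T48h over T12h, was 0.862 at Cct4 and 1.09 at Cct7 relative to the median of shared peaks, which turned the direction at Cct7. With the score in place of the fold, the ratio at Cct7 was 0.751. Requiring an overlap of 50% of both peaks left the fold ratios as they were. No paired analysis was possible because there is a single ChIP library per time, and no replicate could be left out. With 1 library per time, no spread between embryoid body cultures is known, and binding below the caller's cutoff is not in the lists.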
